A study of Mus musculus and unidentified plasmid with 60 samples.

Results

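The regions described here are stretches of the mouse genome that carried a dominant-negative RFX protein in cortical neurons and whose listed width fell to 0.5 times or less after 1 h of depolarization. They were chosen by these measured widths, from the list of bound regions at 0 h. A region was eligible if it had a peak centre in both replicate columns, was at least 300 bases wide and overlapped exactly 1 region of the 1 h list that also had a centre in both columns. Of the 173231 regions of the 0 h list, 38538 were eligible, and 1623 of these were narrowed. That is 4.21% of the eligible regions (exact Clopper-Pearson 95% interval 4.01 to 4.42) and 0.937% of the whole 0 h list. Since the widths chose the regions, every width below is a description and not a test.

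RFX proteins are transcription factors with a winged-helix DNA-binding domain. They bind X-box sequences, which hold a pair of inverted half-sites, and are known for control of cilium genes and of MHC class II genes. A dominant-negative form competes with or disables the native protein. In ChIP-seq, DNA fragments bound to a protein are precipitated and sequenced, and a peak region is the stretch over which fragments pile up, with its centre near the point of highest pile-up. Potassium chloride depolarizes neurons, opens voltage-gated calcium channels and switches on activity-regulated genes.

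Cortical neurons came from E16 embryos of the CD-1 strain and received the RFX dominant negative (RFX-DN) by lentivirus on day in vitro (DIV) 2, so the 0 h and 1 h groups both carried it. From DIV 6 they were kept overnight in tetrodotoxin, which blocks sodium channels, and DL-2-amino-5-phosphonopentanoic acid, which blocks NMDA receptors. On DIV 7 the drugs were removed and 55 mM KCl was applied for 0 or 1 h, and chromatin was precipitated with an anti-MYC antibody. Each group has 2 libraries that were combined into 1 list, and a further list comes from a group titled WT, for which it is unclear whether the neurons carried the construct.

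The sources used here do not name the promoter that drove the construct, or say whether the paired libraries were grown as separate cultures. Each list gives 1 start and 1 end per region for both libraries together, so a width has no replicate. The replicate columns give only the position of a centre, without naming the library. Depth is unknown, and the lists hold no score or height. Each library pools many cells, so a change of extent in every cell and a change in a fraction of cells cannot be told apart. Genes, promoters and motifs in these regions were not analysed here, because the coordinates are in mouse build mm9 and no annotation or genome of that build was used. The cell type could not be checked against marker genes for the same reason. Positions are printed as the lists give them, and chromosomes carry the lists' own numbers from 1 to 21, of which 20 and 21 are presumably X and Y.

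At 0 h the narrowed regions were 300 to 1990 bases wide, with a median of 640 and quartiles of 510 and 760. At 1 h their partners were 20 to 950 bases wide, with a median of 230 and quartiles of 170 and 300. The ratio of 1 h to 0 h width had a median of 0.402 and ran from 0.0532 to 0.5. Over all 38538 eligible regions the median was 350 bases at 0 h and 340 at 1 h. The rule sets a lower limit on the 0 h width and an upper limit on the ratio, so the 1 h widths of the members are low by construction.

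Most eligible regions changed little in width. The median ratio over all 38538 was 0.944. Of these, 27505 (71.4%) were narrower at 1 h, 5138 (13.3%) had the same width and 5895 (15.3%) were wider. The eligible regions as a whole therefore leaned towards smaller width. Whether the narrowed set is the far end of this lean was not tested. By its ratio limit the set lies below the dense band of regions near equal width in the plot of 0 h against 1 h width.

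**Figure D1:**
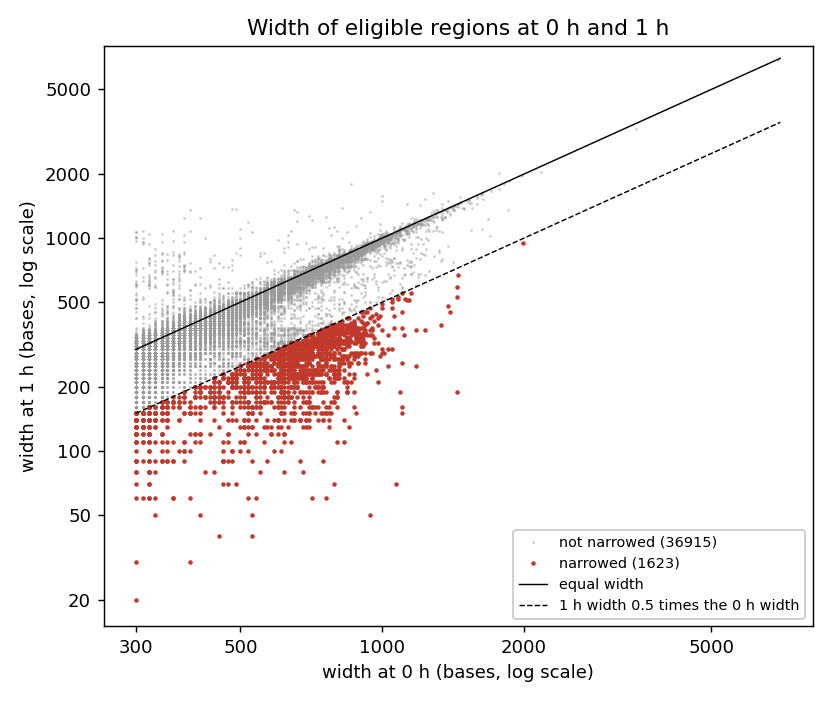
Each point is 1 of the 38538 eligible regions, with its listed width at 0 h on the horizontal axis and that of its 1 h partner on the vertical axis, both in bases on log scales. The 1623 narrowed regions (red) lie on or below the dashed line, which marks 0.5 times the 0 h width and defines them. Grey points gather along the solid line of equal width.

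The boundary of the set fell within a run of similar regions. There were 76 members at a ratio of exactly 0.5 and 441 from 0.45 to 0.5, while 352 regions just over 0.5 and up to 0.55 were not taken. The widest member at the boundary, chr13:52114040-52115140, went from 1100 to 550 bases. Another, chr20:99227150-99228050, went from 900 to 450 bases and kept its left edge within 10 bases. Just outside, chr11:78866390-78867300 went from 910 to 460 bases and chr4:47023400-47024190 from 790 to 400 bases. Both of these missed the limit by less than 1 step of the 10-base grid on which starts and ends are listed. At the width limit, 54 of 3300 eligible regions of exactly 300 bases were members, and 88 of 3289 regions of 290 bases would have been taken had the limit been lower.

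With the lists exchanged, the same rule took far fewer regions. Of 30575 eligible regions of the 1 h list, 111 had a 0 h partner of 0.5 times the width or less, which is 0.363% (95% interval 0.299 to 0.437). There were 14.6 times as many regions narrowed at 1 h as regions narrowed at 0 h. The 111 had a median of 660 bases at 1 h and 280 at 0 h. The lists also differ as a whole: the 0 h columns hold 155961 and 122913 centres and the 1 h columns 114659 and 74386. Over all regions with both centres, of any width, the median width was 270 bases in the 0 h list and 290 in the 1 h list. The 1 h list as a whole was thus not the narrower one. The part of these differences in the narrowing was not tested. When the second 1 h column was left out and a centre in the first sufficed, 2673 of 41403 eligible regions (6.46%) were narrowed. Leaving out the first 1 h column instead gave 2196 regions.

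How often a region was narrowed varied with its 0 h width. Among eligible regions of 300 to 390 bases, 236 of 28642 (0.824%) were narrowed. The share was 4.17% at 400 to 490 bases (153 of 3671) and 13.2% at 500 to 590 bases (242 of 1830). It was highest at 600 to 790 bases, at 25.9% (706 of 2728), and was 17.2% at 800 bases and over (286 of 1667). The 95% intervals of the last pair of classes, 24.2 to 27.6 and 15.4 to 19.1, did not overlap. They cover counting error only. In the exchanged direction the share was also highest at 600 to 790 bases, at 3.62% (64 of 1767), against 0.0253% at 300 to 390 bases.

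**Figure D2:**
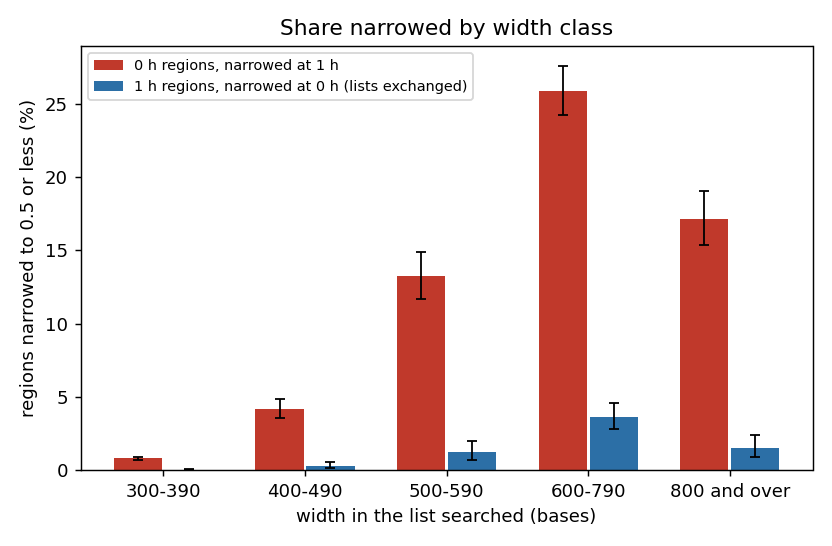
Bars give the percentage of eligible regions narrowed to 0.5 times or less in each class of width (bases), for 0 h regions at 1 h (red) and for 1 h regions at 0 h (blue), with exact 95% intervals that cover counting error. In both directions the bar at 600 to 790 bases is the tallest, at 25.9% and 3.62%.

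The narrowed regions are described in a short and a long class, separated at 400 bases, a boundary chosen after the widths had been seen. To describe them, the bases lost at the left and at the right edge were counted, together with the 2 flanks of each region, meaning the distances from the midpoint of its 2 centres to its edges. The 1387 members of at least 400 bases went from a median of 670 to 250 bases. Their 0 h centre lay off to one side: the shorter flank had a median of 155 bases and the longer 505. The edge that moved more lost a median of 390 bases and the other edge 20.

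A single edge accounted for at least 80% of the lost bases in 1291 of these 1387 regions (93.1%, 95% interval 91.6 to 94.4). More bases went from the longer flank than from the shorter in 1267 of the 1383 with unequal flanks (91.6%). The reverse held in 116. Loss at a single edge was not particular to the members. In the 111 regions narrowed in the exchanged direction, a single edge held at least 80% of the loss in 106 (95.5%), and the longer flank lost more in 90.9% of those with unequal flanks. Among the eligible regions of at least 400 bases that were not narrowed, those that lost bases did so with a median of 100% at a single edge, but that edge lost a median of only 30 bases over all 8509. A region that keeps a centre near one edge and loses at least 0.5 of its width has to lose bases from its longer flank, so this share follows in part from the rule. The side was not fixed by direction along the chromosome: among members with such a loss, the left edge moved more in 676 of 1291 (52.4%, 95% interval 49.6 to 55.1). Of the 1387, 816 (58.8%) kept an edge within 20 bases of its 0 h position, a smaller share than the 85.7% (7296 of 8509) of the others of at least 400 bases and the 65.8% of the exchanged direction. The rule left the others out because they lost less, so the contrast with them follows in part from the choice.

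The 236 members under 400 bases more often lost bases at both edges. They went from a median of 320 to 140 bases, with a centre near the middle: flanks of 145 and 175 bases at the median. Their edges lost medians of 120 and 70 bases on the more and the less trimmed side. A single edge held at least 80% of the loss in 40 of them (16.9%, 95% interval 12.4 to 22.4), and in 91 (38.6%) neither edge held as much as 60%. Over all 1623 members, loss of at least 80% at a single edge applied to 1331 (82.0%, 95% interval 80.1 to 83.8).

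**Figure D3:**
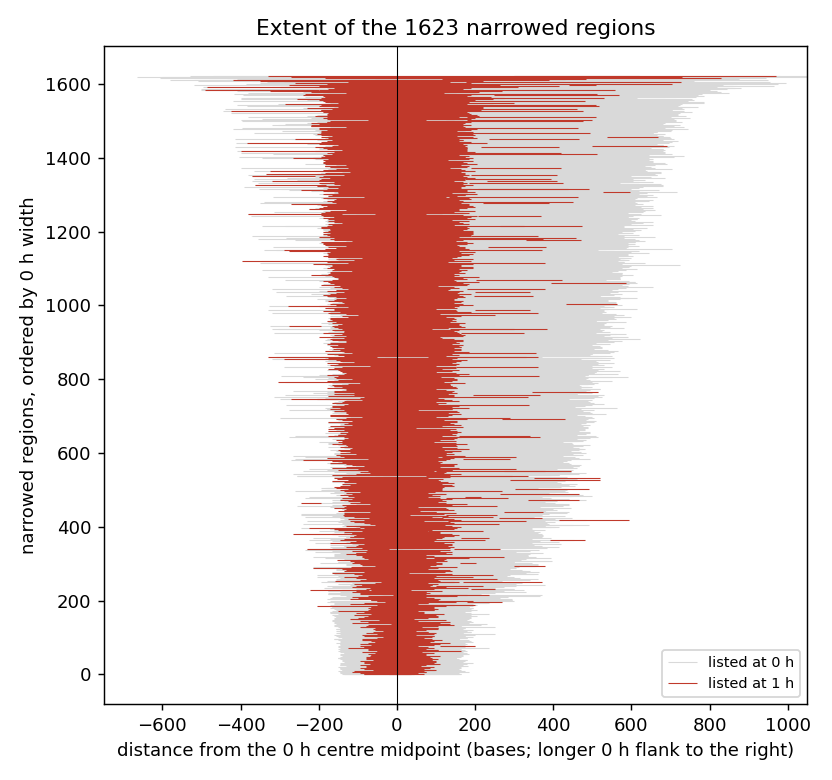
Each line is 1 of the 1623 narrowed regions, ordered upwards by 0 h width and drawn by distance in bases from the midpoint of its 0 h centres, with the longer 0 h flank turned to the right. The 0 h extent is grey and the 1 h extent is red. In the lower rows, under 400 bases, grey shows on both sides of the red. Above them it shows mostly on the right, up to the edge of the panel. That edge cuts off the longer flank of some of the widest regions.

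The stretch that stayed listed was usually the one around the 0 h centres. Both 0 h centres lay within the 1 h region in 1446 of 1623 members (89.1%, 95% interval 87.5 to 90.6), 1 of them in 143 (8.81%) and neither in 34 (2.09%). The first column's centre was inside in 94.6% and the second's in 92.4%. The midpoint of the centres moved by a median of 10 bases from 0 h to 1 h, with quartiles of 5 and 20. Among the 36915 eligible regions that were not narrowed, both centres were inside in 99.9%, but there the 1 h region also covered more of the 0 h region.

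Coverage by distance shows the same for the 1387 members of at least 400 bases. At the centre, 89.9% were still listed at 1 h. At 100 bases into the longer flank it was 71.7%, at 200 bases 8.80% and at 300 bases 5.84%, whereas at 0 h 95.9% of them reached 300 bases. On the shorter flank, 93.4% reached 100 bases at 0 h and 69.1% at 1 h. Of the 8509 other eligible regions of at least 400 bases, 60.8% reached 300 bases into the longer flank at 0 h and 47.1% at 1 h. The drop of the narrowed regions thus came between 100 and 200 bases from the centre. A region of at least 400 bases has a longer flank of at least 200, and the rule limits the 1 h width. Where the drop lies therefore follows in part from the choice.

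**Figure D4:**
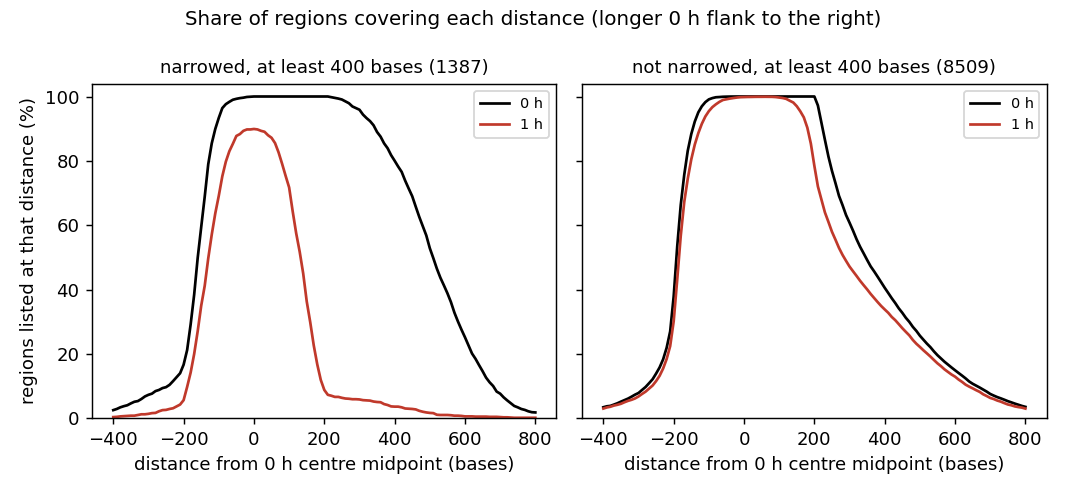
The vertical axis gives the percentage of regions whose listed extent covers a position, and the horizontal axis its distance in bases from the midpoint of the 0 h centres, with the longer 0 h flank to the right, for the 1387 narrowed and the 8509 other eligible regions of at least 400 bases. In the narrowed set the 1 h curve (red) falls from 71.7% at 100 bases to 8.80% at 200 bases. The 0 h curve (black) stays at 100% over that stretch, as it must in regions of at least 400 bases.

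Regions of like width that were not narrowed had a similar shape at 0 h once they were wide. Among regions of 600 to 790 bases, the shorter flank of the narrowed ones took up a median of 22.8% of the width, and that of the others 26.7%. At 800 bases and over the values were 21.8% and 22.6%. At 400 to 490 bases they lay further apart, at 29.0% and 44.6%. The 0 h outline of the widest regions therefore differed little between those that were narrowed and those that were not. What the 600 to 790 base regions did at 1 h differed by the rule: the narrowed ones lost a median of 390 bases on the longer flank and 10 on the shorter, and the others 20 and 10.

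In 140 members (8.63%) the replicate columns placed their 0 h centres at least 100 bases apart, against 1.90% of all eligible regions that were not narrowed. At 400 bases and over it was 129 of 1387 members (9.30%) and 629 of 8509 others (7.39%), so the gap was smaller there. Members of this class were still wider at 0 h than the others, with medians of 670 and 540 bases. At 1 h, 13 members (0.801%) had centres this far apart. The rule selects short 1 h regions, which limits how far apart their centres can lie, so this low share follows in part from the choice. Of the 140, the 1 h region held the 0 h centre of the first column alone in 81 and of the second alone in 43. It held both in 11 and neither in 5. When the 0 h centres were under 100 bases apart, both stayed inside the 1 h region in 1435 of 1483 members (96.8%).

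The 10 widest members show these forms at single places. The widest, chr15:13727240-13729230, went from 1990 to 950 bases, with 840 bases lost on the left and 200 on the right. At chr13:14614380-14615820 a region of 1440 bases became 530, and both columns put the centre 290 bases from its 0 h start at 0 h and again at 1 h. The 890 bases that dropped out there were all on the right of that centre, and the left edge moved by 20. This is the most common form, loss of a long flank with an unmoved centre.

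Several wide members had 0 h centres on 2 separate places. In chr1:155155300-155156750, of 1450 bases, the columns placed the centre 900 and 40 bases from the start. At 1 h both columns placed it at 910, and the 770 bases on the left, which held the second column's 0 h centre, were no longer listed. The same happened in chr5:137393840-137395280, with 0 h centres at 1090 and 110 bases and 1 h centres at 1080 and 1090. In chr19:6452490-6453720 the 0 h centres at 660 and 50 bases were followed by 1 h centres at 650 and 660. At chr6:88673920-88675300 it was the second column's centre, at 640 bases, that both columns gave at 1 h, while the first column's, at 1250, was left outside. In these 4 regions the columns met within 10 bases of a position that 1 column had given at 0 h.

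Other wide members were trimmed on both sides of a fixed centre. The region chr14:63035150-63036590 went from 1440 to 190 bases and lost 580 bases on the left and 670 on the right, with centres at 660 and 670 bases at 0 h and at 670 and 680 at 1 h. At chr12:12293460-12294790, 1330 bases became 390, with 420 and 520 lost. At chr2:140485420-140486600, 1180 bases became 370, with 400 and 410 lost. In each of these 3 the midpoint of the centres moved by 10 bases or less.

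In chr4:129862980-129864370 the centre itself changed place. Both columns put it 870 bases from the start at 0 h, and 380 and 370 bases from that start at 1 h. The region went from 1390 to 450 bases and lost 900 on the right, so that the stretch listed at 1 h held neither 0 h centre. This was 1 of the 5 members whose midpoint moved furthest. The others were chr9:26182420-26183260 (590 bases), chr9:62658560-62659410 (585 bases), chr6:95832170-95832960 (560 bases) and chr4:130396140-130396850 (500 bases). In all 5, both 0 h centres were outside the 1 h region, and the columns lay 35 bases or less apart at 0 h.

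**Figure D5:**
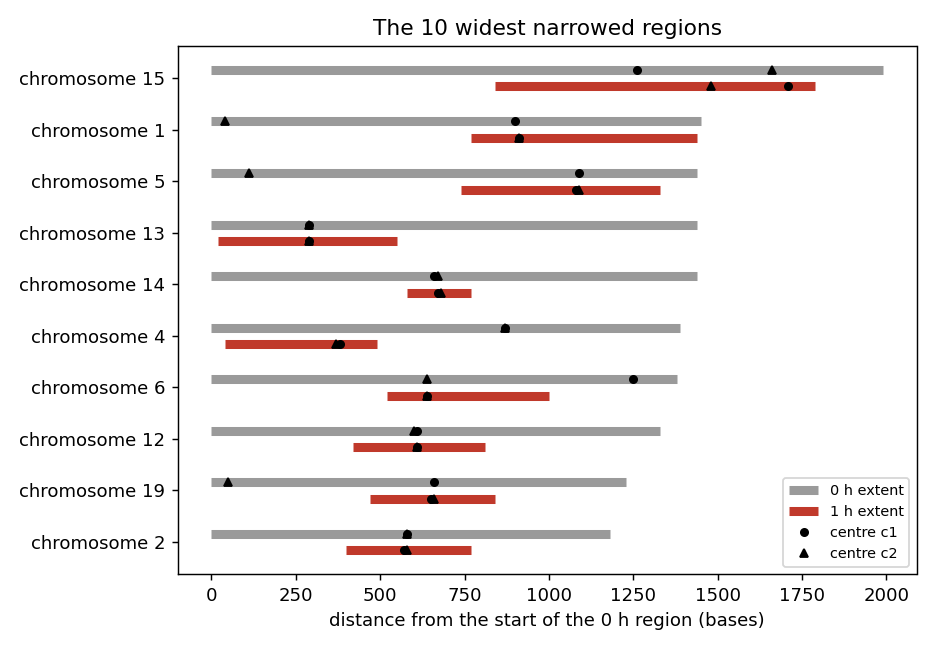
The 10 widest narrowed regions, one pair of bars each, with distance in bases from the 0 h start on the horizontal axis. Grey bars are the 0 h extent and red bars the 1 h extent, and the circle and triangle mark the centre in the first and second replicate column. In 5 of the 10 the 0 h centres lie at least 100 bases apart, and in 9 of the 10 the 1 h centres lie 10 bases or less apart.

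The lowest ratios belonged to regions reduced to very short stretches. The 10 lowest went from 300 to 1070 bases at 0 h to between 20 and 70 bases at 1 h. In chr1:172993950-172994890, 940 bases became 50 around an unmoved centre, with 360 bases lost on the left and 530 on the right. In chr10:37117100-37117400, 300 bases became 20. The region chr17:31872700-31873770, with 0 h centres 990 and 50 bases from its start, went from 1070 to 70 bases and kept the place of the first. Both 0 h centres stayed inside in only 1 of these 10, and 6 of them had 0 h centres at least 100 bases apart.

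The remaining 7 were chr14:56901970-56902500, chr1:180554020-180554410, chr5:145831730-145832490, chr15:80795340-80796050, chr6:95832170-95832960, chr13:54559160-54559610 and chr2:33164570-33165100. Starts and ends are listed in steps of 10 bases, and most centres are too. Centres off that step were more frequent among narrowed regions at both times. At 0 h they made up 0.924% of the first column and 2.40% of the second, against 0.0325% and 0.265% in the eligible regions that were not narrowed. At 1 h there were 88 in the first column (5.42%) and 174 in the second (10.7%), against 0.190% and 1.91%. The narrowed regions and the others differ in width, with 0 h medians of 640 and 350 bases. These shares were not compared within classes of like width. The part of such centres in the narrowing was not tested.

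Narrowed regions were spread over the genome. The share of eligible regions narrowed ran from 3.39% on chromosome 16 (44 of 1298) to 5.23% on chromosome 17 (80 of 1530), and the intervals of these extremes, 2.47 to 4.52 and 4.17 to 6.47, overlapped. Chromosome 20 had 33 of 731 (4.51%) and chromosome 21 none of its 1 eligible region. In windows of 1 Mb, 1469 windows with eligible regions held no member, 647 held 1 and 249 held 2.

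The window with most members lay on chromosome 6 from 114000000 to 115000000 and held 9 narrowed regions of 48 eligible (18.8%). They ranged from chr6:114500220-114500570, which went from 350 to 150 bases, to chr6:114298170-114299140, which went from 970 to 440. At chr6:114731740-114732400, 660 bases became 200, with 450 lost on the left and 10 on the right. At chr6:114648120-114648730, 610 became 290, again through the left edge, which moved by 350. At chr6:114148670-114149270, 600 became 160, through the right edge, which moved by 400. Members of the same window thus lost opposite sides.

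A window on chromosome 2 from 168000000 to 169000000 held 6 members of 35 eligible regions (17.1%), among them chr2:168414220-168415050, which went from 830 to 140 bases. A further 13 windows held 5, such as that on chromosome 1 from 178000000 to 179000000 with 5 of 23 eligible regions. There, chr1:178915850-178916760 went from 910 to 330 bases.

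At 10 kb the surroundings of narrowed regions had values near those of the others. Within 1 kb the share of neighbours that overlapped a 1 h region lay further apart. A median of 2 other 0 h regions lay within 10 kb of a narrowed region, as for eligible regions that were not narrowed. Of the neighbours within 10 kb, 66.4% overlapped a 1 h region around narrowed regions and 66.2% around the others. Eligible neighbours within 10 kb were themselves narrowed in 5.12% (44 of 859) around narrowed regions and in 4.57% around the others. Within 1 kb, 18.2% of narrowed regions and 14.1% of the others had another 0 h region, but at 400 bases and over it was 18.2% and 16.8%. Of these close neighbours, 63.5% (195 of 307) overlapped a 1 h region around narrowed regions and 68.3% around the others, and at 400 bases and over 63.7% and 69.8%. No narrowed region overlapped 1 of the 43 regions of the WT list, and 6 of the 36915 others did.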

How the data were processed

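Of the 8 ChIP-seq libraries, the lists of the RFX-DN 0 h, RFX-DN 1 h and WT groups were used, and the 2 input libraries were not used here. The submitters' processing notes name Bowtie and build mm9, and no source used here names the peak caller, a threshold or how the 2 libraries were merged. Per the file headers, the authors deposited a chromosome, a start, an end and 2 columns, c1 and c2, per region. These hold a position or a mark of none and were read as replicate peak centres.

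Width is end minus start, and overlap needed at least 1 base. Intervals are exact Clopper-Pearson at 95% and cover counting error only. No test was run, since regions are not replicates. Named regions are the 10 widest, the 10 of lowest ratio, those at the ratio limit, the 5 with the largest centre shift and members of the 5 fullest windows of 1 Mb, of which some are printed. The members, lists and thresholds were chosen with earlier results of these data known. The code of the rule was tested on simulated data of 20000 regions. Its overlaps between the 0 h and 1 h lists were compared with those of bedtools. Computations used Python 3.11.15, pandas 2.3.3, numpy 2.4.6, scipy 1.17.1, matplotlib 3.10.9 and bedtools 2.31.1. Alternatives varied the ratio, the minimum width, the overlap, the columns required and the joining of 1 h regions.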

Additional observations from a re-analysis of the deposited data

How the results depend on the processing

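The number of narrowed regions was 809 at a ratio of 0.4, 2849 with a minimum width of 200 bases and 2980 with a centre needed in 1 column only, and ran from 1626 to 2673 when a column was left out. It was 2673 without the second 1 h column. The share of eligible regions was 2.10% at a ratio of 0.4 and 6.19% at 0.6. It was 4.68%, 14.0% and 19.8% with minimum widths of 200, 400 and 500 bases, 7.01% with 1 column and 4.74% with the widths of all overlapping 1 h regions summed. Leaving out a column gave 4.22% to 6.46%. That setting changed which centres were required and not the widths, since starts and ends still came from both libraries together. It therefore cannot show whether a single library would give the same narrowing. The exchanged rule took 38 regions at a ratio of 0.4, 195 at 0.6 and 210 with 1 column. In the settings run in both directions, regions narrowed at 1 h outnumbered those narrowed at 0 h by 10.5 to 21.3 times.

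The share of members whose 1 h region held both 0 h centres was lowest, at 73.8%, without the second 1 h column, and was 78.3% without the first. With a 0 h column left out, only the remaining centre had to be inside. That share was 92.4% without the first and 94.4% without the second. Over the main members the second column's centre was inside in 92.4% and the first's in 94.6%. The share with loss at a single edge was 87.2% at a threshold of 70% of the lost bases and 67.0% at 90%. Those thresholds, and the settings that leave out a column for measures of shape, were chosen after seeing the data. No paired analysis was possible because no column is tied to a library and a width is listed once per group. Alternatives on promoters and RFX half-sites were not run. Unknown depth limits every count of regions, and the cause of these differences was not tested.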

Other observations

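Regions that the rule passed over also held short 1 h partners. Of the 42720 0 h regions with both centres and at least 300 bases, 620 overlapped more than 1 region of the 1 h list. Of these 620, 603 overlapped 2. These split regions had a median 0 h width of 890 bases. The summed width of their 1 h pieces was at most 0.5 times the 0 h width in 393 (63.4%). The widest single piece was at most that wide in 568 (91.6%). A split region shares its extent between separate pieces and the gap between them, so these shares follow in part from the choice. A further 2988 of the 42720 met 1 partner at 1 h that lacked a centre in a column. In 1110 of these (37.1%) its width was 0.5 times or less. Shares for the exchanged direction are not given here. Another 574 of the 42720 met no 1 h region. Over the whole 0 h list, whatever the width or centres, 113274 of 173231 regions (65.4%) overlapped a 1 h region.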
